A study of Mus musculus with 13 samples.

Results

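Wnt ligands, their receptors and the genes of the beta-catenin pathway were followed in whole brains of mouse embryos that lack Meg3, a long non-coding RNA of an imprinted gene cluster. The list held 50 genes, of which 49 had a probe set annotated to that gene alone, out of 18193 genes so represented on the array. Each gene was read from 1 probe set, the one with the highest mean signal over all arrays, and Tcf7 had none. The groups were 7 embryos without Meg3 (knock-out) and 6 with it (wild-type) at embryonic day 18.5, with 1 whole brain per array, from 5 litters, read from the leading number of the embryo label. Litter 148 gave 1 knock-out embryo. Litter 219 gave 1 knock-out and 2 wild-type embryos, litter 238 gave 2 and 1, litter 250 gave 2 and 2, and litter 262 gave 1 and 1. The sources used here do not give the strain or which part of Meg3 is removed. The embryos are whole-brain samples, so fewer cells of a type and less RNA per cell cannot be told apart.

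Wnt proteins are secreted lipid-modified ligands that bind Frizzled receptors together with the co-receptors Lrp5 and Lrp6, or with Ror and Ryk receptors on other branches of the pathway. Without a ligand, a complex of Axin, Apc and Gsk3b marks beta-catenin for destruction, and with one, Dishevelled proteins inhibit that complex and beta-catenin enters the nucleus to act with TCF and LEF factors. In the embryonic brain the pathway is known for patterning the dorsal midline and hippocampus, for regulating neural progenitors, and, through Wnt7a and Wnt7b, for vessel growth and the blood-brain barrier.

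The labels were borne out by Meg3 itself. Its linear signal had a lowest, median and highest value of 264, 347 and 589 in knock-out brains, against 3109, 5321 and 6251 in wild-type brains. Of 12918 genes above the filter on low signal, 3 (0.0232%) were lower in knock-out brains past an adjusted p of 0.05 in limma, namely Meg3, Rian and Mirg, and 0 (0%) were higher. Pairs of arrays correlated at 0.893 to 0.990 on the log2 scale. The ratio of the 3' to the 5' Actb control probe set, a sign of RNA or labelling quality, was 1.81 in knock-out 1 and 2.92 in wild-type 2, against 1.32 to 1.495 in the other 11 arrays.

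No Wnt pathway member was higher or lower in knock-out brains past the threshold. Of the 49 members, 41 had a mean signal above the filter, at a signal of 56.9, and were tested. Below it lay the ligands Wnt1, Wnt2b, Wnt3, Wnt3a, Wnt5b and Wnt8b, the co-receptor Lrp5 and the inhibitor Dkk1. Of the 41 tested, 0 were called at an adjusted p of 0.05 in limma in either direction. At an unadjusted p of 0.05, 1 member (2.44%) was called, against 254 of all 12918 genes (1.97%). The knock-out mean was higher for 24 members and lower for 17, with a median log2 change of 0.01, beside 0.04 over all genes tested. The knock-out and wild-type values overlapped in every tested member, and 0 were separated, where 10 genes in all (0.0774%) were.

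The precision of the arrays sets what differences these data could hide. On the probe sets read, the 95% interval of the change lay within 1.5-fold in both directions for 33 of the 41 members. It lay within 2-fold for all 41. The widest of these reached a log2 change of -0.87 for Tcf7l1 on the lower side and 0.78 for Wnt7b on the upper side. Some other probe sets above the filter had wider intervals, up to 1.43 for Wnt7b and 1.35 for Apc and down to -1.02 for Dvl2.

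**Figure D1:**
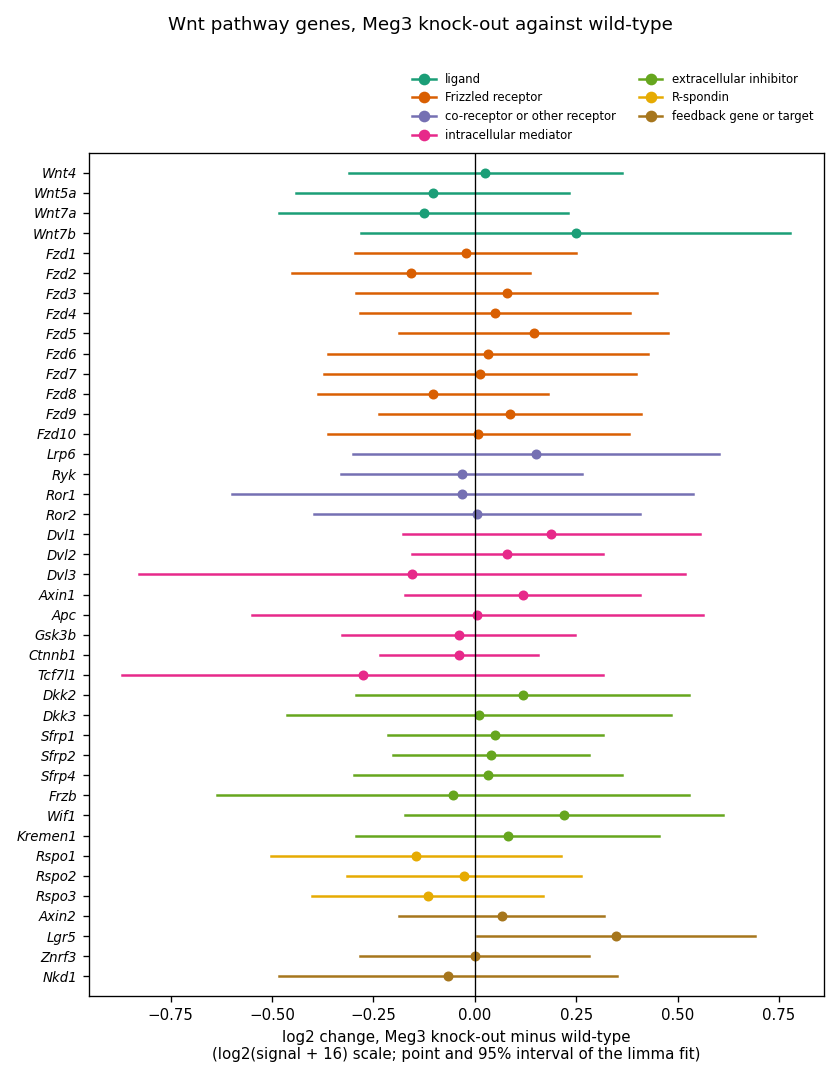
Log2 change between Meg3 knock-out and wild-type brains (horizontal axis, log2(signal + 16) scale) for each of the 41 tested members, coloured by role, with points for the fitted change and lines for its 95% interval. The points lie between -0.28 (Tcf7l1) and 0.35 (Lgr5), and every interval but that of Lgr5 includes 0.

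Among the ligands, 4 of 10 were above the filter, and 2 of these were above and 2 below the wild-type mean in knock-out brains. Wnt7b, a ligand known to act on brain endothelium, had a lowest, median and highest signal of 953, 1235 and 1703 in knock-out brains, against 459, 1044 and 1998 in wild-type brains. Both extremes came from wild-type embryos of litter 219, so the groups overlapped entirely, and the low one was wild-type 2, the array with the highest 3' to 5' ratio, whose part in it was not tested. The log2 change of Wnt7b was 0.25 with a 95% interval of -0.28 to 0.78 (limma adjusted p = 1.00). It was 0.020 without wild-type 2, 0.44 without wild-type 1 and 0.054 with the Actb ratio in the model.

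Wnt7a, the close relative of Wnt7b, had 453, 683 and 772 in knock-out brains, against 506, 650 and 942 in wild-type brains. Knock-out embryos 3, 4 and 7 fell below every wild-type embryo and the other 4 did not. Its log2 change was -0.13 (interval -0.48 to 0.23), and a second probe set above the filter gave 0.10. Without wild-type 1 the change was -0.024. Wnt4, which acts in several developing organs, averaged 454 ± 82.8 in knock-out and 451 ± 110 in wild-type brains (SD, n = 7 and 6). Wnt5a, the prototype ligand of the branch that does not use beta-catenin, averaged 382 ± 81.0 and 405 ± 55.0. Their log2 changes, 0.03 and -0.10, were smaller than the spread within either genotype. Further probe sets above the filter gave -0.01 for Wnt4, and 0.37 and -0.16 for Wnt5a. A dim Wnt5a probe set below the filter gave 0.53 (interval 0.15 to 0.91, limma adjusted p = 0.877).

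The ligands below the filter were dim in both genotypes. Wnt3a, a ligand of the cortical hem, had 19.8, 56.7 and 74.0 in knock-out brains, against 44.6, 59.97 and 82.3 in wild-type brains. Wnt1, a ligand of the midbrain and dorsal midline, had 4.30, 9.55 and 19.4 in knock-out brains, against 5.35, 18.6 and 24.6 in wild-type brains. Signals at this level are close to those of probe sets that detect little, and no change was read from them.

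All 10 Frizzled receptors were above the filter, of which 7 averaged above wild-type in knock-out brains and 3 below. On the probe sets read, their log2 changes ran from -0.16 to 0.15. A second Fzd4 probe set above the filter gave 0.32 (interval 0.02 to 0.61, limma adjusted p = 0.939), where the one read gave 0.05. Further probe sets of Fzd2 gave -0.23 and 0.09. Fzd2 had 377, 526.1 and 631 in knock-out brains, against 417, 588 and 684 in wild-type brains. Only knock-out 7 lay below every wild-type embryo, and the log2 change was -0.16 (interval -0.45 to 0.14). It was -0.089 without that embryo and -0.35 under median centring. Fzd3, a receptor known for axon guidance, had 2887, 3627 and 4031 in knock-out brains, against 1851, 3778 and 4404 in wild-type brains. Its lowest value was wild-type 1, and the log2 change of 0.08 (interval -0.29 to 0.45) turned to -0.09 without that array.

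Fzd8 had 154, 215 and 254 in knock-out brains, against 192, 230 and 324 in wild-type brains. The lowest was knock-out 1 and the highest wild-type 1, and the other values interleaved. Its log2 change was -0.10 (interval -0.39 to 0.18).

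Fzd5, a receptor known in eye and vessel development, was measured by a pair of probe sets that did not behave alike. The brighter one had a lowest, median and highest signal of 98.8, 121 and 137 in knock-out brains, against 69.2, 112 and 145 in wild-type brains. The groups overlapped, with the knock-out values inside the wild-type range, and the log2 change was 0.15 (interval -0.19 to 0.48). The weaker probe set had signals of 4.65, 7.91 and 11.3 in knock-out brains, against 17.0, 27.3 and 36.7 in wild-type brains.

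Every knock-out embryo was below every wild-type embryo on the weaker Fzd5 probe set, which fixes the sign within each litter. In the 4 litters with both genotypes the log2 differences ran from -1.01 to -0.73. The probe set averaged 8.01 ± 2.35 in knock-out and 27.0 ± 6.65 in wild-type brains (SD, n = 7 and 6). When all 45037 non-control probe sets were tested without a filter, its log2 change was -0.83 ± 0.13 (SE; limma adjusted p = 0.0249). That test called 22 probe sets lower (0.0488%), 5 of them below the filter. The exact permutation p was 0.000583, the smallest that the 1716 splits of the arrays allow, which any full separation of the groups gives. The share of all probe sets that separate the groups is not given here. The weaker Fzd5 probe set was looked at after its values were seen, and its signal lies far below the filter. Its call was lost in 19 of 27 other settings, with a limma adjusted p of 0.00889 to 0.807. Its direction was the same in all 27.

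**Figure D2:**
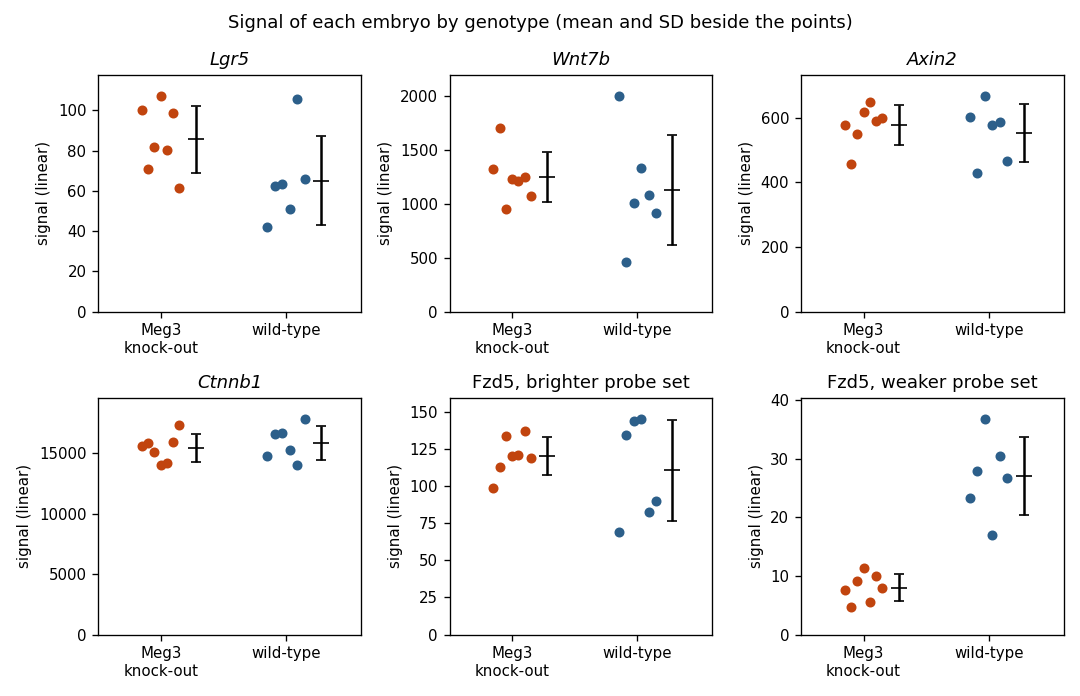
Linear signal of each embryo (vertical axis) by genotype for 4 members and both Fzd5 probe sets, with the mean and SD drawn beside the points (n = 7 knock-out and 6 wild-type). The groups overlap in every panel except the weaker Fzd5 probe set, where the knock-out values reach 11.3 and the wild-type values start at 17.0.

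Of the co-receptors and other receptors, 4 of 5 were above the filter, of which 2 averaged above wild-type in knock-out brains and 2 below. Lrp6, the co-receptor that carries the signal to Axin, had 583, 778 and 946 in knock-out brains, against 336, 757 and 993 in wild-type brains. The lowest was again wild-type 1, and the log2 change of 0.15 (interval -0.30 to 0.60) was -0.05 without it. Ror1, Ror2 and Ryk, receptors of other Wnt branches, had log2 changes of -0.03, 0.01 and -0.03.

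The intracellular mediators split evenly, with 4 higher and 4 lower means among the 8 tested. Ctnnb1, which encodes beta-catenin, had 14039, 15577 and 17313 in knock-out brains, against 14043, 15928 and 17809 in wild-type brains. The ranges were nearly the same, and the log2 change was -0.04 with an interval of -0.23 to 0.16. This fold of 0.973 (interval 0.850 to 1.11) made Ctnnb1 the most narrowly bounded of the members on the probe sets read. Its further probe sets above the filter had log2 changes of 0.13 (interval -0.67 to 0.94) and 0.02 (interval -0.42 to 0.45).

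The destruction complex showed no call either. Axin1, its scaffold, had 662, 802 and 913 in knock-out brains, against 503, 783 and 838 in wild-type brains, a log2 change of 0.12 (interval -0.17 to 0.41). Apc, which holds beta-catenin in the complex, had 4605, 8446 and 9355 in knock-out brains, against 3002, 8612 and 9660 in wild-type brains. Knock-out 1 and 4 and wild-type 1 were the low arrays of Apc, the change was 0.01 (interval -0.55 to 0.56), and without wild-type 1 it was -0.25.

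Gsk3b, the kinase of the complex, had 3116, 4024 and 5338 in knock-out brains, against 3260, 4204 and 5460 in wild-type brains, a change of -0.04 (interval -0.33 to 0.25). Its other 5 probe sets above the filter gave changes of 0.04 to 0.46, all with a limma adjusted p of 0.967 or above. Dvl1, a Dishevelled scaffold, had 1809, 2081 and 4460 in knock-out brains, against 1867, 2075 and 2136 in wild-type brains. The highest value, in knock-out 1, stood apart from all other arrays, and knock-out 1 is also an array of high 3' to 5' ratio; its part in the value was not tested. The log2 change of Dvl1 was 0.19 (interval -0.18 to 0.56), and its second probe set gave 0.04. Without knock-out 1 the change was 0.033, and with litter as a block it was 0.049.

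Tcf7l1, a TCF factor known mainly as a repressor of Wnt targets, had 79.2, 319 and 385 in knock-out brains, against 234, 321 and 419 in wild-type brains. Knock-out 7 alone was far below the rest. The change was -0.28 (interval -0.87 to 0.32), and without knock-out 7 it was -0.023.

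Of the 8 secreted or membrane inhibitors tested, 7 had a higher mean in knock-out brains, with log2 changes from -0.05 to 0.22 and a median of 0.05, beside 0.04 over all genes. Wif1, which binds Wnt ligands outside the cell, had 77.3, 124 and 167 in knock-out brains, against 57.2, 99.6 and 131 in wild-type brains. Knock-out embryos 4 and 6 exceeded every wild-type embryo, and the change was 0.22 (interval -0.17 to 0.61). It was 0.098 without wild-type 2, 0.14 without knock-out 4, 0.045 under quantile normalization and 0.023 under median centring. Sfrp1, a secreted Frizzled-related inhibitor, had 994, 1331 and 1607 in knock-out brains, against 1090, 1297 and 1477 in wild-type brains, a change of 0.05 (interval -0.21 to 0.32). Its 5 probe sets disagreed in sign, from -0.29 to 0.12.

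The 3 R-spondins, which raise Wnt responses by keeping Frizzled at the cell surface, all had lower means in knock-out brains, by log2 changes of -0.14 to -0.03. Rspo3 had 186, 204 and 283 in knock-out brains, against 174, 228 and 301 in wild-type brains, a change of -0.12 (interval -0.40 to 0.17). Rspo1 had 64.8, 71.9 and 92.4 in knock-out brains, against 39.8, 93.0 and 117 in wild-type brains, a change of -0.14 (interval -0.50 to 0.21). In both the knock-out values lay inside the wild-type range.

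The 4 feedback genes or targets, which report on pathway output, divided into 2 higher and 2 lower means. Axin2, the most widely used readout of beta-catenin signalling, had 458, 590 and 648 in knock-out brains, against 428, 581 and 666 in wild-type brains. The knock-out values all lay within the wild-type range, and the change was 0.07 with an interval of -0.19 to 0.32, a fold of 1.05 (0.878 to 1.25). A second Axin2 probe set above the filter gave a log2 change of 0.16 (interval -0.46 to 0.78). Nkd1, an inhibitor induced by the pathway, and Znrf3, a ubiquitin ligase that removes Frizzled, had changes of -0.07 and -0.00.

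Lgr5, a receptor for R-spondins and itself a Wnt target, had the smallest unadjusted p of the 41 members. Its signal was 61.6, 81.7 and 107 in knock-out brains, against 42.0, 63.1 and 106 in wild-type brains. Wild-type 5, at 106, lay among the highest knock-out values, and the other 5 wild-type embryos were at 65.9 or below, where knock-out 7 also lay. The log2 change was 0.35 ± 0.16 (SE; interval 0.01 to 0.69), with an unadjusted p of 0.0465 and an adjusted p of 1.00 in limma, and an exact permutation p of 0.0635. The differences within litters 219, 238, 250 and 262 were 0.36, 0.46, 0.22 and -0.08. A second, weaker probe set of Lgr5 gave -0.23. The change was 0.16 under quantile normalization and 0.15 under median centring, where that of Tcf7l1 was -0.40 and -0.47.

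Within litters the members were as mixed as across them. In 3 of 41 members (7.32%), Wnt7b, Dvl2 and Dkk2, the knock-out minus wild-type difference had the same sign in all 4 litters with both genotypes, where 1458 of all genes (11.3%) did. The genotype difference varied between litters for 0 members and for 0 of all genes (0%) at an adjusted p of 0.05 in limma, and at an unadjusted p of 0.05 for 2 members, Ror1 and Tcf7l1, and 183 genes (1.42%). Of 24 members with several probe sets above the filter, 14 had probe sets whose changes differed in sign.

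Other genes of the pathway gave a like picture. Of 85 further pathway genes listed, 80 were on the array and 68 were tested, with 44 higher and 24 lower means in knock-out brains. Of these, 0 were called, 1 had an unadjusted p under 0.05, and the median log2 change was 0.06. The smallest p-values belonged to log2 changes of 0.64 ± 0.27 (SE) for the Dickkopf-like Dkkl1 and -0.61 ± 0.31 for Sostdc1, an inhibitor of Wnt and BMP signals, both with a limma adjusted p of 1.00. Chd8, a chromatin factor that binds beta-catenin, and Bcl9l, a beta-catenin co-activator, had 0.24 and 0.26.

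Markers of the cell types that make or receive Wnt signals were read beside the members. Choroid plexus markers had lower means in knock-out brains in 7 of 8 tested, with a median log2 change of -0.46, and 0 were called. The summed signal of the 10 on the array was mostly Ttr, with a mean signal of 24265. It ran from 9019 to 32044 in knock-out brains, against 23039 to 38526 in wild-type brains, with the lowest sum in knock-out 4. The largest changes were -0.85 for Cldn2 and -0.84 for Clic6. Sums for neurons ran from 62596 to 72833 in knock-out brains, against 63836 to 72855 in wild-type brains, and all 10 neuronal markers were above the filter. Of 8 markers of muscle, pituitary and eye, only Acta1 and Pomc were above it.

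Differences between litters were tested next. A litter term in limma, fitted with genotype, was called for 5 of all genes (0.0387%) and 0 members at an adjusted p of 0.05. At an unadjusted p of 0.05 it was called for 14 of 41 members (34.1%), against 1934 of all genes (15%). Fzd7 had the smallest p of the members (F = 18.5, limma adjusted p = 0.0729), followed by Dvl1, Nkd1 and Ror1 at 0.126, 0.144 and 0.144. Under quantile normalization Fzd7 passed, with 0.0450.

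**Figure D3:**
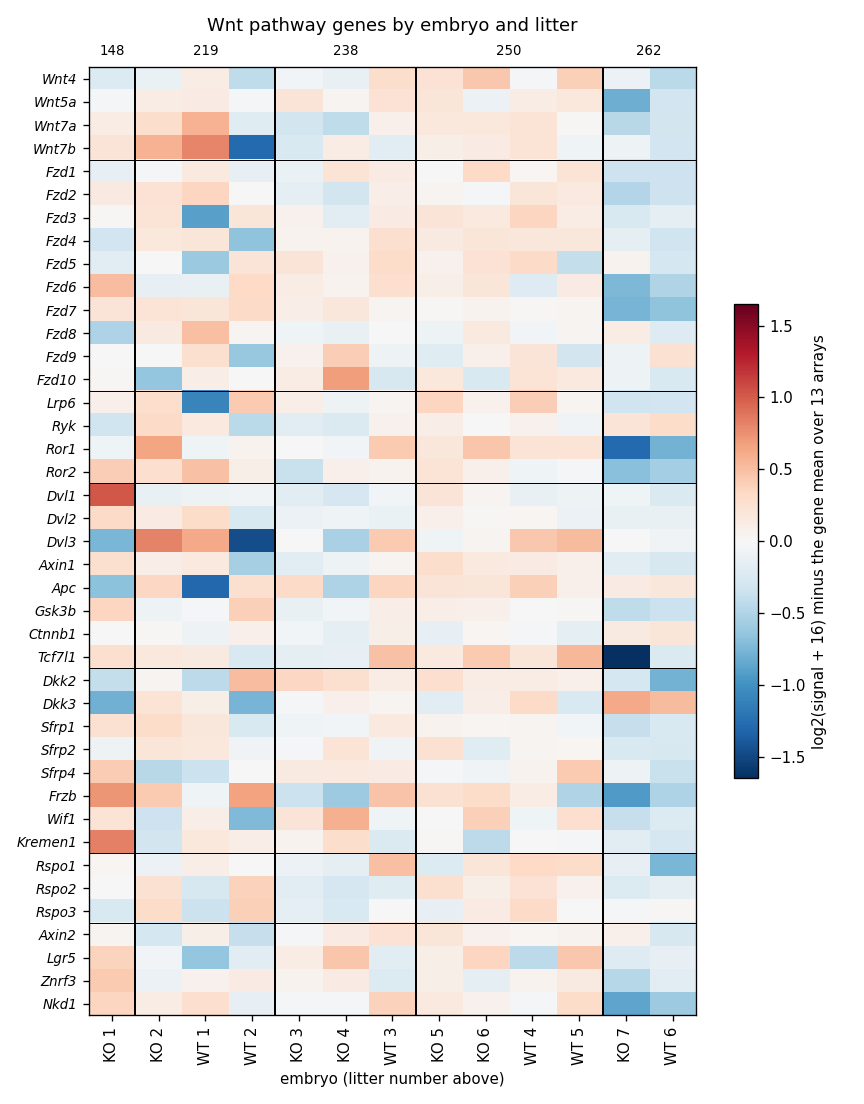
Log2(signal + 16) of the 41 tested members (down the page, grouped by role) in each of the 13 embryos (across, grouped by litter, knock-out left of wild-type), as the deviation from each gene's mean. The 2 embryos of litter 262 are below the mean (blue) in most members, among them Fzd7, Ror1, Nkd1 and Fzd6.

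Each litter was then set against the other litters with genotype in the model, a comparison added after the values had been seen. In litter 262, 6 of 41 members (14.6%) were lower past an adjusted p of 0.05 in limma, where 301 of all genes (2.33%) were. None of the 41 was higher there, against 10 of all genes (0.0774%). In the other litters 0 members passed in either direction. Of all genes, 0.0232% were higher and 0.031% lower in litter 148 with its 1 array, 0.00774% higher and 0.0155% lower in litter 219, and 0% either way in litters 238 and 250. Adjusted over all 5 comparisons together, Fzd7, Nkd1 and Ror1 remained lower in litter 262 (0.712% of all genes). That adjustment also called Dvl1 higher in litter 148, with a log2 change of 1.09. Litter 148 is knock-out 1 alone, so its contrast describes 1 array and takes the spread from the other litters.

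The members lower in litter 262 were 1 ligand (Wnt5a), 3 receptors (Fzd6, Fzd7, Ror1), the TCF factor Tcf7l1 and the feedback gene Nkd1. Fzd7 had 226 in knock-out 7 and 243 in wild-type 6, the 2 embryos of that litter, against 401, 428 and 495 (lowest, median and highest) in the other 11. Both litter 262 embryos were far below all others, and the log2 change was -0.85 ± 0.12 (SE; limma adjusted p = 0.00543). Ror1, a receptor for Wnt5a, had 28.6 and 47.4, against 87.5, 107 and 155 in the other embryos, a change of -1.22 ± 0.20 (limma adjusted p = 0.00745). Both litter 262 values of Ror1 lie below the signal of 56.9 at which the filter was set.

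Nkd1 had 158 and 194 in knock-out 7 and wild-type 6, against 273, 331 and 399 in the other embryos, a change of -0.87 ± 0.15. Wnt5a had 214 and 306, against 360, 422 and 459, a change of -0.67 ± 0.13. In these members too the ranges did not overlap. Fzd6, a receptor known for planar cell polarity, had 213 and 255, against 315, 400 and 531 in the other embryos, a change of -0.73 ± 0.17 (limma adjusted p = 0.0414).

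Tcf7l1 had 79.2 in knock-out 7 and 238 in wild-type 6, against 234, 320 and 419 in the other embryos, so that only knock-out 7 stood apart. Its change was -1.12 ± 0.26 (limma adjusted p = 0.0394). Ror2, the second Wnt5a receptor, missed the threshold with -0.74 ± 0.18 (limma adjusted p = 0.0504). Both litter 262 embryos were the lowest of all 13 in 11 of 41 members (26.8%), where this held for 1256 genes (9.72%), and the highest in 2, Ctnnb1 and Dkk3, where it held for 374 genes (2.9%). Of the 41 members, 36 had a lower mean in litter 262, with a median of -0.28, beside -0.10 over all genes. These counts hold for the probe sets read. Further ones above the filter gave 0.56 for Fzd1, -0.67 and -0.18 for Fzd2, -0.38 to 0.35 for Gsk3b and -0.05 to 0.95 for Sfrp1. For Dkk3 they gave -0.15, and for Ctnnb1 0.51 and 1.14. Those of Lrp6, Axin1 and Wnt7b were higher, at 0.69, 0.51 and 0.77. Those of Wnt4, Wnt7a and Fzd4 were lower, at -0.37, -0.26 and -0.14.

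**Figure D4:**
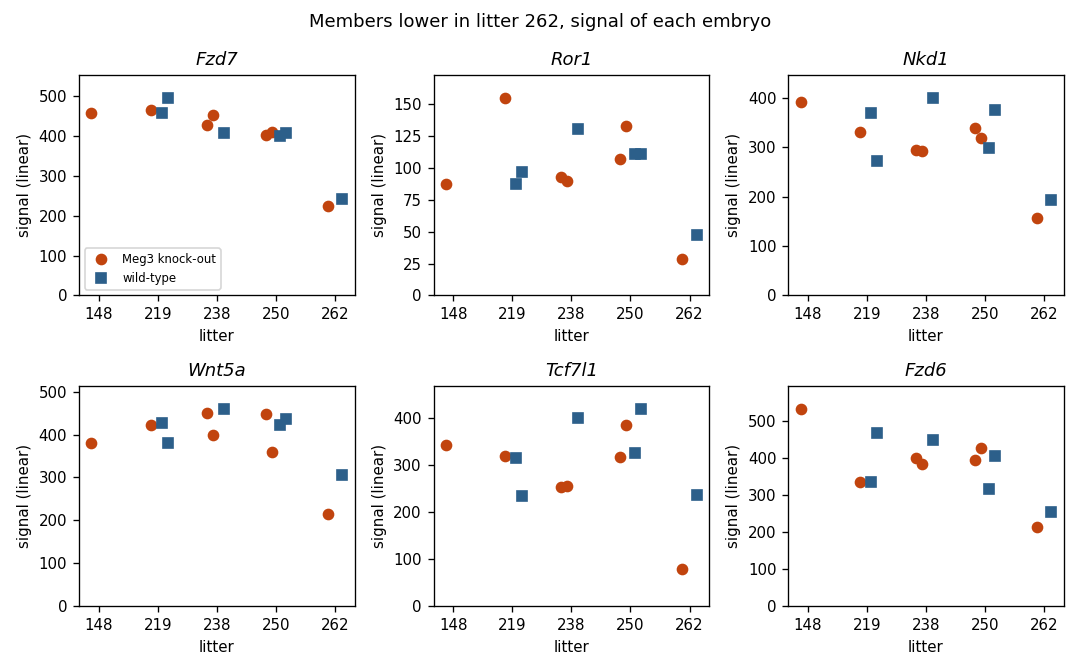
Linear signal (vertical axis) of the 6 members that were lower in litter 262, for each embryo by litter (horizontal axis), with knock-out embryos as circles and wild-type embryos as squares. For Fzd7, Ror1, Nkd1, Wnt5a and Fzd6 both litter 262 embryos lie below all others, and for Tcf7l1 only the knock-out embryo does.

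The litter difference rested on few embryos and on the probe set read. With either embryo left out, litter 262 is 1 array whose spread is taken from the other litters, and precision is lost. Without knock-out 7, 0 members were lower past the threshold, and without wild-type 6, 1 was, Tcf7l1. The log2 change of Fzd7 was -0.79 without knock-out 7 and -0.90 without wild-type 6, and that of Ror1 was -0.95 and -1.48. For Tcf7l1 it was -0.46 without knock-out 7 and -1.77 without wild-type 6. When probe sets of a gene were averaged, 1 member passed, Tcf7l1 again. The share of all genes lower in litter 262 in these settings is not given here, so the member counts have no background beside them. Further probe sets above the filter gave -0.68 and -0.49 for Wnt5a, -0.63 for Tcf7l1, -0.25, -0.13 and -0.49 for Nkd1, and 0.39, the other direction, for Fzd6. Dim probe sets below the filter gave 0.42 for Fzd7, -0.64 and 0.36 for Ror1, -0.20 for Wnt5a and -0.18 for Fzd6.

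Markers of some other cells were lower in litter 262. All 12 meningeal and fibroblast markers had a lower mean in litter 262 and 6 were called lower, among them Col1a2 at -1.64 and Col3a1 at -1.40, both collagens. Their summed signal was 6448 in knock-out 7 and 7669 in wild-type 6, against 11122 to 21041 in the other embryos. Of 11 endothelial markers 4 were called lower, Cdh5, Kdr, Slc2a1 and Flt1, with a sum of 6183 and 6399, against 7758 to 9607 in the others.

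Neuronal markers had 0 of 10 called and 4 of 10 with a lower mean, with a median change of 0.06. Their sum, in which bright genes weigh most, was 72833 and 72855, against 62596 to 71341 in the others. Thalamus, midbrain and hindbrain markers had a lower mean in 7 of 9, with a median of -0.55. Neural progenitor markers had one in 7 of 9, with a median of -0.25, and proliferation markers in 3 of 6, with -0.04. None of these was called. Choroid plexus markers had a median change of -0.94 with 0 called. Their sum, mostly Ttr, was 18847 and 33015, against 9019 to 38526 in the others. Of 7 markers of the cortical hem, hippocampus and roof plate 1 was called lower, Msx1 at -0.79, the list's median was -0.23, and Prox1 had 0.80. Of 68 further pathway genes 2 (2.94%) were called lower, beside 2.33% of all genes. These were Bmp4 at -1.05 and Adgra2, a co-receptor for Wnt7 ligands on endothelium, at -0.92. The part of these cell types in the lower Wnt members was not tested.

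**Figure D5:**
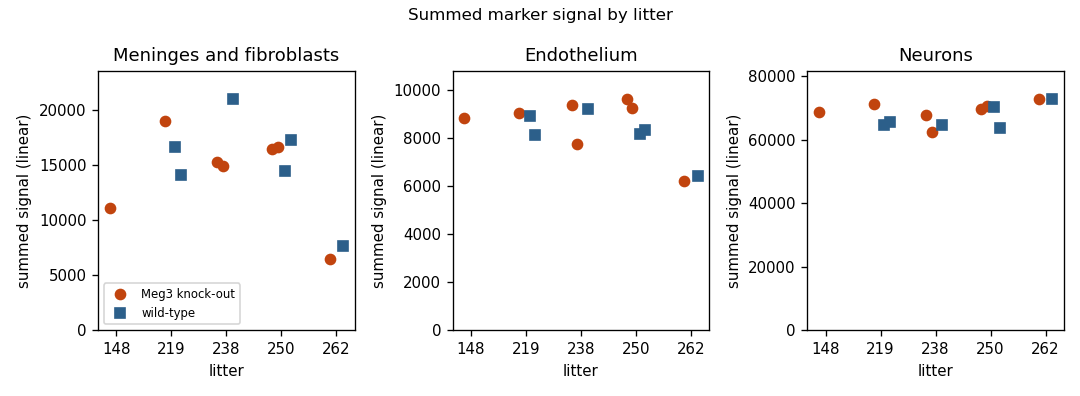
Summed linear signal (vertical axis) of the meningeal and fibroblast, endothelial and neuronal marker lists for each embryo by litter (horizontal axis), with knock-out embryos as circles and wild-type embryos as squares. Both litter 262 embryos are the lowest in the first and second panels (6448 and 7669, then 6183 and 6399) and the highest in the third.

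The 250 bases before the start of 4 of these 6 genes are shown because these members were called lower in litter 262, Tcf7l1 through knock-out 7 alone. They are from RefSeq, build GRCm38.p6, printed 5′ to 3′ on the gene's strand, and the table matched 32 of the 50 members. Each was searched for a TCF/LEF-type motif on either strand, which capitals mark. The motif was CTTTG followed by any pair of the bases A and T, and no other motif was searched. The windows lie at chr1:59481897-59482146 (plus strand) for Fzd7, chr8:88527383-88527632 (plus) for Nkd1, chr4:100095541-100095790 (plus) for Ror1 and chr6:72789046-72789295 (minus) for Tcf7l1.
Fzd7: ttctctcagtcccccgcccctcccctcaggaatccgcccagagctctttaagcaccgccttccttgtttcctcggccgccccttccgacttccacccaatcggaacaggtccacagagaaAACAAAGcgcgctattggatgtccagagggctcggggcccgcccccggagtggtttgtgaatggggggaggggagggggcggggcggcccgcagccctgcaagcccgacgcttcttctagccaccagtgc
Nkd1: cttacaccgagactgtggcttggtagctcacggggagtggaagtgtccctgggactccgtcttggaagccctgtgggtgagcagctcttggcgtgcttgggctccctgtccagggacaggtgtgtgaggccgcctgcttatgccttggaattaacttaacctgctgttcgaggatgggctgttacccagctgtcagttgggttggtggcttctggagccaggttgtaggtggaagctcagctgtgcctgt
Ror1: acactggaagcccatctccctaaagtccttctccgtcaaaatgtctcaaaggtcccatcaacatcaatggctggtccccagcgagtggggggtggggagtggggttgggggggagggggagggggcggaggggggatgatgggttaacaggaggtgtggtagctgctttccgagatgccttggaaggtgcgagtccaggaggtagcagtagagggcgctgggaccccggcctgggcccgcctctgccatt
Tcf7l1: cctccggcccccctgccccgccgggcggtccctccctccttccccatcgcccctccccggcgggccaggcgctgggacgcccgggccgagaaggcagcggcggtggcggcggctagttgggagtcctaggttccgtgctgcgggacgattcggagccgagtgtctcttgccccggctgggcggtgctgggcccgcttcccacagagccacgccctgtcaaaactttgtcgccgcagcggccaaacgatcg
A motif was present in Fzd7, as AACAAAG on the gene's strand, starting 130 bases before the gene start, and in none of the other 3 windows. Over all 32851 windows of this length 14.8% held one, and among the 32 members 3 did, Dkk1, Fzd7 and Wnt5b. A match of these letters is a description of the sequence only, and its absence says only that these letters are not in the window.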

How the data were processed

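The deposited values were linear probe set intensities from Affymetrix arrays, and per the labels' protocols 5 µg of total RNA was turned into biotinylated cRNA. How the arrays were summarised and scaled is not given in the sources used here. Intensities were analysed as deposited, as log2(signal + 16), so changes of dim genes are understated. Of 45037 non-control probe sets, 34945 carried 1 symbol, 932 several and 9160 none. Genes above the 40th percentile of mean log2 signal were tested in limma 3.58.1 (lmFit, eBayes; R 4.3.3) without a litter term, and two-sided p-values were adjusted by Benjamini-Hochberg over the 12918 genes. Permutation tests were exact, two-sided and ignored litter. Replicate numbers were not used to pair the samples. Deviations of same-numbered pairs correlated at -0.26 to 0.40, and some of these pairs also share a litter. Pairs of the same litter correlated at -0.11 to 0.57 and pairs sharing neither at -0.36 to 0.23. These ranges overlap, so they do not settle whether the numbers mark pairs. The members, the role groups, the pathway and marker lists and the tests were chosen with earlier results of these data known. Members are named in full where their p was among the 12 smallest or they are core or bright genes. Depth does not apply to arrays, and their number limits the precision. Alternatives were another pseudocount, filter, scaling, probe set rule, block or covariate, ordinary least squares, and leaving out each embryo or litter. The code was tested on simulated data.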

Additional observations from a re-analysis of the deposited data

Results flagged for a closer look

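In the 82 sets of embryos checked (41 members in each genotype), 11 values stood apart from the others of their genotype by Dixon's test. Chance would give about 1 such value in 20 sets if the sets were independent, but the members share the same arrays. The share over all genes is not given here, so no excess among the members was read from this count. Of the 11 values, 5 were low values in knock-out 7, of litter 262. They were 214 for Wnt5a, 226 for Fzd7, 28.6 for Ror1, 79.2 for Tcf7l1 and 158 for Nkd1. Its littermate, wild-type 6, was likewise far below the other wild-type embryos in Fzd7, at 243. Knock-out 1 was high in Dvl1, at 4460, and low in Fzd8, at 154. Wild-type 1 was high in Fzd8, at 324, and low in Apc, at 3002. Wild-type 2 was low in Dvl3, at 10.9. Knock-out 1 and wild-type 2 are the arrays of high 3' to 5' Actb ratio, and the part of that ratio in these values was not tested.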

How the results depend on the processing

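In each of 30 other settings 0 members passed the threshold between genotypes, with a lowest limma adjusted p of 0.635 over the 19 named members, and 525 of their 564 log2 changes kept the direction. Changes are knock-out minus wild-type throughout. Quantile normalization moved the median of all genes to -0.03 and gave Fzd5 -0.055, Apc -0.0032 and Axin2 -0.014. Median centring moved it to -0.15 and gave Dvl1 -0.0085, Fzd5 -0.051, Axin1 -0.079, Apc -0.19, Axin2 -0.13, Lrp6 -0.046, Fzd3 -0.12 and Sfrp1 -0.15. With litter as a block Fzd8 was 0.022. The replicate block gave Gsk3b 0.027 and Apc -0.017. With it 3 of all genes were called lower between genotypes, as without it, and the call of the weaker Fzd5 probe set, given last, was lost. Other probe set calls and the litter contrasts were not read with that block. A fit with the Actb ratio as covariate gave Gsk3b 0.051. The mean over probe sets gave Fzd8 0.0020, Ctnnb1 0.036, Gsk3b 0.24 and Sfrp1 -0.082. Without litter 219 Gsk3b was 0.049, Apc -0.30, Lrp6 -0.012 and Fzd3 -0.11, and without litter 238 Ctnnb1 was 0.0087 and Gsk3b 0.0049. Without knock-out 1 and wild-type 2, a setting chosen after the values were seen, Axin1 was -0.015, Axin2 -0.0048 and Sfrp1 -0.032. Leaving out each embryo in turn gave -0.12 to 0.033 for Gsk3b, -0.25 to 0.12 for Apc, -0.0030 to 0.12 for Axin2, -0.052 to 0.25 for Lrp6 and -0.092 to 0.16 for Fzd3. Among the named members whose sign was kept, the widest such ranges were 0.020 to 0.44 for Wnt7b, -0.37 to -0.023 for Tcf7l1, -0.31 to -0.061 for Rspo1 and 0.033 to 0.25 for Dvl1. The count of all genes higher was 0 to 1 when each embryo was left out and 1 without litter 238. The count of genes that differ between litters was 3 with a pseudocount of 64, 2 with a filter at the 60th percentile, 52 under quantile normalization and 51 under median centring. Under either of those scalings 1 member, Fzd7, was among them. The count of members lower in litter 262 was 11 under median centring, 1 for the mean over probe sets, 10 without knock-out 1 and wild-type 2, and 0 to 7 when each embryo was left out. The share of all genes lower in litter 262 in those settings is not given here, so those member counts have no background beside them. The weaker Fzd5 probe set had a limma adjusted p of 0.0909 with litter as a block, 0.807 in the replicate block and 0.211 with a pseudocount of 64. Of 13 fits that left out 1 embryo, 4 kept its call. The causes were not tested.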
